A study of Mus musculus with 6 samples.

Results

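Macrophages that carried the C1q complement genes and the mannose receptor gene Mrc1, with little major histocompatibility complex class II (MHC-II), were examined in mouse rotator cuff entheses after injury, the enthesis being the attachment of tendon to bone. They were chosen by counts of unique molecular identifiers (UMIs) per barcode, the droplet label that stands for 1 cell. A barcode had at least 1000 UMIs, at least 200 genes and at most 10% mitochondrial UMIs. It also had at least 10 UMIs of C1qa, C1qb and C1qc together, at least 1 of Mrc1, at most 2 of Arg1, fewer than 10 of H2-Aa, H2-Ab1 and H2-Eb1 together, and none of the division genes Mki67 and Top2a. Collagen genes Col1a1, Col1a2 and Col3a1 had to stay under 1% and the neutrophil genes S100a8 and S100a9 under 2% of its UMIs. These limits were met by 2933 of 85339 barcodes that passed the filters on UMIs, genes and mitochondrial share, which is 3.44%. They are called C1q Mrc1 macrophages below.

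C1q is the recognition part of the classical complement pathway and also binds dying cells, and tissue macrophages are its main source. Mrc1 encodes CD206, an endocytic receptor for mannose-bearing glycoproteins and collagen fragments that is often used as a mark of alternatively activated, repair-associated macrophages. Macrophages with these genes clear dead cells, take up matrix debris, recycle iron and release growth factors. MHC-II presents antigen to CD4 T cells and is raised in another part of the macrophage pool.

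The samples were 3 libraries from wild-type C57BL/6 mice and 3 from Nlrp3-/- mice, which carry a knockout of the gene for the sensor protein of the NLRP3 inflammasome. All mice had undergone injury and repair of the supraspinatus tendon, at an age of 12 to 14 weeks by the study's methods, and the enthesis was taken at 7 days postinjury (dpi). The study's methods say that entheses were pooled, while its figure legends give n = 3 per genotype. A library may therefore mix animals, whose number per library was not given in the sources used here. The p-values measure only the spread between libraries, which may be technical. The genotype labels of Nlrp3-/- replicates 2 and 3 name Nlrp4 and Nlrp5, while their titles name Nlrp3, and Nlrp3 had 0 UMIs in the C1q Mrc1 macrophages of all 3 knockout libraries. The genotypes also differed in sex-linked genes. Xist, which is transcribed from the inactive X chromosome, was at 901, 940 and 762 counts per 1000000 (CPM) in the knockout libraries and at no more than 0.263 CPM in the wild-type libraries, and the Y-linked genes Ddx3y, Eif2s3y, Uty and Kdm5d had 0 UMIs in these cells in every knockout library. Sex and genotype therefore cannot be told apart in any comparison below. The study's methods also name different suppliers for the wild-type and the Nlrp3-/- mice, so supplier and genotype cannot be told apart either.

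The libraries held 97042713 to 134901999 UMIs, of which 19586774 lay in C1q Mrc1 macrophages. The wild-type libraries gave 326, 615 and 281 of these cells with medians of 6487.5, 5476 and 7320 UMIs, and the Nlrp3-/- libraries gave 579, 294 and 838 with medians of 4705, 7106 and 6768. Nlrp3-/- replicate 1 stood apart in the whole series, with 22048 filtered barcodes at a median of 2069 UMIs. Wild-type replicate 3 stood apart within the C1q Mrc1 macrophages. Its root mean square difference in log2 CPM, over 5470 genes with at least 20 CPM, was 0.468 and 0.436 from wild-type replicates 1 and 2, and 0.393, 0.434 and 0.372 from the 3 knockout libraries. Between wild-type replicates 1 and 2 it was 0.311. Pairs of libraries shared 27 to 95 filtered barcodes, and over all 15 pairs 3 barcodes were C1q Mrc1 macrophages in both. No doublet caller was run, and instead cells with 3 or more UMIs of other cell types' genes were left out in an alternative.

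The markers of the population were high in every library, as the rule and the label would give. C1qa ranged over the 6 libraries from 3794 to 4630 CPM and C1qb from 4207 to 5525 CPM, while Mrc1 ranged from 488.5 to 638.2 CPM. Outside the rule, Apoe, the lipid carrier, was at 21290 to 30840 CPM, Ms4a7 at 1647 to 2053 CPM, and Pf4, the chemokine CXCL4, at 3355 to 7162 CPM. At least 1 UMI of Ms4a7 was found in 93.6% to 98.9% of the cells per library, of Pf4 in 94.3% to 96.9% and of Apoe in 99.3% to 100%. In neutrophils of the same libraries, which should lack them, those shares were at most 5.71%, 16.1% and 39.96%, at shallower medians of 1678 to 2720 UMIs. With every cell thinned to 1000 UMIs, the shares were 73.8% to 83.7% for Ms4a7, against at most 3.35% of neutrophils. The MHC-II C1q and Arg1 macrophages described below carried it too, in 61.54% to 67.85% and 47.25% to 68.63% of thinned cells. The general macrophage genes Csf1r (263 to 335 CPM), Cd68 (737 to 851 CPM) and Adgre1, which encodes F4/80 (382 to 610 CPM), were present in all 6 libraries. Csf1r was at 303 to 409 CPM in MHC-II C1q macrophages.

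The 12 genes listed for long-resident and perivascular macrophages ranged from near 0 to high levels. Selenop, which encodes a secreted selenium carrier, was at 1511 to 2382 CPM over the 6 libraries, the transglutaminase gene F13a1 at 240 to 441 CPM, Gas6 at 154 to 287 CPM and Cbr2 at 50.6 to 98.7 CPM. F13a1 was higher still in the monocytes of these libraries, at 469 to 828 CPM. Folr2, the folate receptor beta, was at 164, 147 and 111 CPM in wild-type and 168, 245 and 165 CPM in Nlrp3-/- libraries. Ltc4s and Fcna lay between 12.1 and 44.2 CPM. Lyve1, the hyaluronan receptor of perivascular macrophages, was at 1.28, 2.37 and 0 CPM in wild-type libraries and at 0, 42.8 and 0.987 CPM in Nlrp3-/- libraries. The high value of Nlrp3-/- replicate 2 came from 95 UMIs in 8 of its 294 cells. Timd4, a phosphatidylserine receptor of resident macrophages, stayed at or under 7.21 CPM, Cd163, the hemoglobin scavenger receptor, at or under 13.1 CPM and Cd209f at or under 13.7 CPM. The alternative activation gene Retnla, of another list, stayed at or under 8.56 CPM. At least 1 Folr2 UMI was found in 43.5% to 60.5% of C1q Mrc1 macrophages and in at most 0.787% of neutrophils. After thinning these shares were 12.1% to 19.4% and at most 0.197%, in MHC-II C1q macrophages 2.56% to 10.3%, and in the Arg1 macrophages described below 5.88% to 21.4%, which overlaps the C1q Mrc1 macrophages. Trem2, a lipid-sensing receptor of wound macrophages, was detected in 87.2% to 97.3% of the cells, and Stab1, a scavenger receptor, in 74.5% to 85.4%. In neutrophils these shares were at most 7.87% and 1.77%, and in Arg1 macrophages 92.3% to 100% and 72.4% to 86.3%. After thinning they were 47.8% to 64.4% and 29.9% to 43.4% in C1q Mrc1 macrophages. Arg1 macrophages then had 47.1% to 63.9% and 17.2% to 35.2%, which overlaps both.

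Cells with and without a UMI of a given gene were compared within each library as a description, without a test, because detection depends on depth. Ccr2, the receptor that draws monocytes out of marrow, had a UMI in 12.9% to 19.7% of the cells. These cells were higher than the others, in 6 of 6 libraries, in the monocyte genes Ly6c2 (median log2 ratio 2.76), Plac8 (2.74) and Vcan (2.27). They were lower in Ccl8, a monocyte-attracting chemokine (-1.80), in the growth factor Igf1 (-1.66), in Gdf15 (-1.61) and in the bridging molecule Gas6 (-1.18), again in 6 of 6 libraries. Cells with a Folr2 UMI were higher in the carbonyl reductase gene Cbr2 (1.17) and the lipid scavenger Cd36 (0.76), and lower in Il1b (-0.92), Cd74 (-0.84) and Ccr2 (-0.80), with the same sign in all 6 libraries. A Ccr2 UMI was found in at most 5.12% of neutrophils at their shallower depth, and in 41.2% to 64.7% of MHC-II C1q macrophages.

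C1q Mrc1 macrophages were next set beside 1353 barcodes that met the same rule with at least 10 MHC-II UMIs, called MHC-II C1q macrophages. Since the rule splits the populations, their contrast is a description without a test, with CPM + 1 on the log2 scale. Of 5697 genes outside the rule, 16 (0.281%) were at least 2-fold higher and 19 (0.334%) at least 2-fold lower in each of 6 libraries. The genes named here had the same sign in 6 of 6 libraries. Lower genes included other parts of the antigen presentation machinery. Cd74, the invariant chain, averaged 222 CPM against 10680 CPM (median log2 ratio -5.69), its regulator Ciita was at -4.22, and the peptide loaders H2-DMb1 and H2-DMa were at -3.17 and -2.77. Il1b, the cytokine processed by the inflammasome, averaged 194 CPM against 782 CPM (-2.07). Higher genes were the ubiquitin ligase Rnf128 (2.65), Cd36 (2.06), the glycoprotein Pdpn (2.06), the matrix protein osteopontin gene Spp1 (1.85), the heme-degrading enzyme Hmox1 (1.65) and Gpnmb (1.47), a glycoprotein of lipid-loaded macrophages.

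Another 371 barcodes met every limit other than that on Arg1 and had at least 3 Arg1 UMIs, and are called Arg1 macrophages. They held 29, 91 and 51 cells in wild-type and 56, 36 and 108 cells in Nlrp3-/- libraries. Of 5616 genes, 17 (0.303%) were at least 2-fold higher and 2 (0.0356%) at least 2-fold lower in C1q Mrc1 macrophages in each library. Ccl8 averaged 885 CPM against 54.4 CPM (median log2 ratio 4.33), and Fcrls (3.00), the adhesion molecule Vcam1 (2.81) and the iron exporter Slc40a1 (2.11) were also higher. Genes lower in 6 of 6 libraries included the neutrophil chemokine Cxcl3 (-3.13), fibronectin Fn1 (-1.87), Ccl2 (-1.50) and Ccl9 (-1.39). Spp1, Cd36, Hmox1 and the marker Pf4 were also lower than in Arg1 macrophages in 6 of 6 libraries. Arg1 macrophages had 7334 to 22600 CPM of Spp1, 409 to 896 CPM of Cd36, 1770 to 4127 CPM of Hmox1 and 4296 to 15390 CPM of Pf4. The 1409 barcodes that met the rule with Mrc1 at 0 UMIs were a further comparison, in which 11 of 5650 genes (0.195%) were at least 2-fold higher in each library and 1 (0.0177%) lower. Ccl8 (3.62), Ccl12 (2.43), Vcam1 (2.14) and Gas6 (1.83) were higher, and Sdc1 (-2.17), the lectin receptor Clec4e (-1.47), S100a4 (-1.25) and Fn1 (-1.11) were lower. Over the 6 libraries Ccl8 was at 380 to 2015 CPM and Vcam1 at 115 to 332 CPM in C1q Mrc1 macrophages. These overlapped the MHC-II C1q macrophages, at 367 to 1454 and 126 to 283 CPM. The heat map of levels by population shows these patterns in each library.

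**Figure D1:**
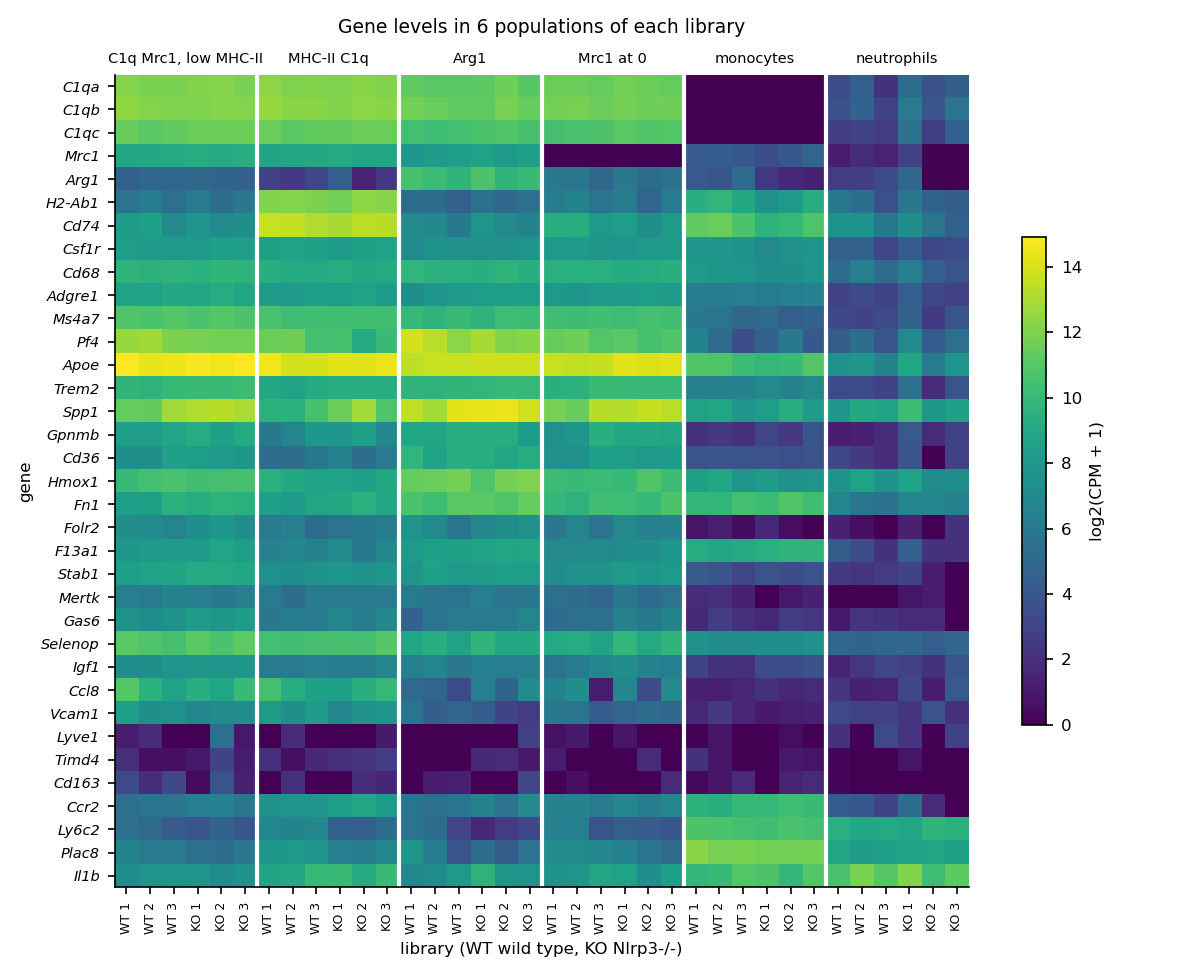
Levels of chosen genes as log2(CPM + 1) (colour) in 6 populations, each split into 3 wild-type (WT) and 3 Nlrp3-/- (KO) libraries (columns). The rule fixes the rows from C1qa to H2-Ab1, and the choice of monocytes fixes their Ly6c2, Ccr2 and C1q. Folr2, Gas6, Ccl8 and Vcam1 were brighter in C1q Mrc1 macrophages than in monocytes, Plac8 was darker, and Lyve1, Timd4 and Cd163 were near 0 in nearly all columns.

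Against 2381 monocytes with Ly6c2 and Ccr2 and without C1q, 373 of 5985 genes (6.23%) were at least 2-fold higher in each library and 267 (4.46%) lower. Ccl8 (median log2 ratio 7.77), Pf4 (7.35), Folr2 (6.41) and Gpnmb (6.10) led the higher genes named, and Plac8 (-5.84) and the cytokine gene Il6 (-5.13) the lower ones. Ly6c2, Ccr2 and C1q were used to choose the monocytes and are left out here. Cells on both sides of each limit of the rule gave the following levels, from UMIs pooled over all 6 libraries and both genotypes. The 59 cells with 8 or 9 MHC-II UMIs had 2024 CPM of Cd74 and 1677 CPM of Ms4a7, and the 53 cells just outside with 10 or 11 had 1997 and 1525 CPM. Spp1 was at 2460 CPM in the former and 8716 CPM in the latter. Between libraries Spp1 ran from 2608 to 10070 CPM in all C1q Mrc1 macrophages. The part of the library mix in this gap was not tested. The 800 cells with 1 Mrc1 UMI had 145 CPM of Folr2, against 90.2 CPM in the 1409 cells with none, and the 107 cells with 2 Arg1 UMIs had 156 CPM, against 159 CPM in the 88 with 3. For C1q the 83 cells with 10 or 11 UMIs had 14423 CPM of Apoe and the 82 with 8 or 9 had 11387 CPM.

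The share of C1q Mrc1 macrophages was compared between the genotypes. Among all filtered barcodes it was 2.58%, 3.96% and 2.84% in wild-type libraries and 2.63%, 2.49% and 6.25% in Nlrp3-/- libraries. Nlrp3-/- replicate 3 was above all others and the remaining knockout values lay within or below the wild-type range. The means were 3.13% ± 0.736 and 3.79% ± 2.13 (SD, n = 3 libraries each), a difference of 0.66 percentage points with an exact two-sided permutation p of 0.9. Without Nlrp3-/- replicate 3 the difference was -0.571 (exact permutation p = 0.4). Among the 9692 barcodes with at least 10 C1q UMIs the shares were 24.3%, 28.1% and 33.4% in wild-type and 28.7%, 31.0% and 35.6% in Nlrp3-/- libraries. These overlapped, with means of 28.6% ± 4.59 and 31.8% ± 3.51 (SD, n = 3) and an exact permutation p of 0.4. With limits set on shares of UMIs in place of UMI counts the difference changed sign, from 3.2 to -0.395 percentage points. The shares were then 22.6%, 24.6% and 33.8% in wild-type and 13.6%, 31.6% and 34.6% in Nlrp3-/- libraries. Nlrp3-/- replicate 1 had 4087 barcodes past that C1q limit, against 2017 by UMI counts. Among 20 assignments of 6 libraries the test cannot go below 0.1, and the intervals drawn in the plot of shares cover counting error only.

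**Figure D2:**
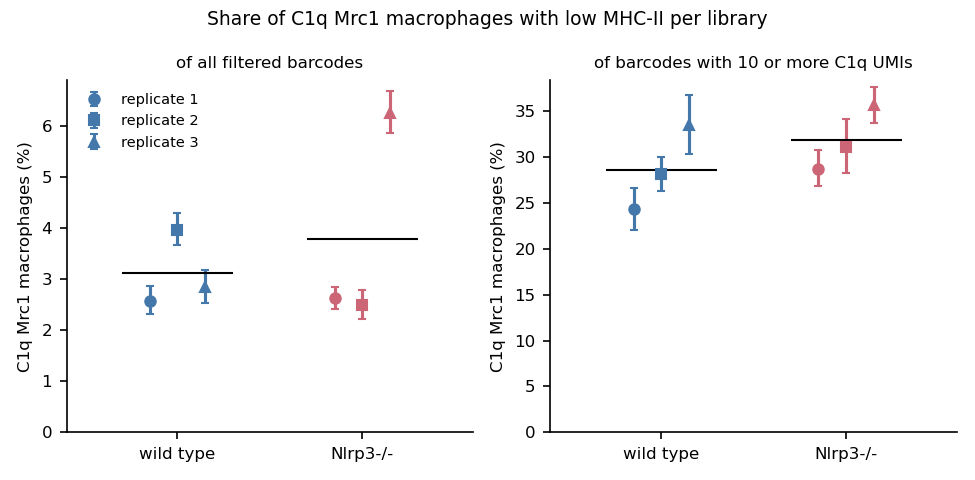
Percentage of C1q Mrc1 macrophages (vertical axis) among all filtered barcodes (left) and among barcodes with at least 10 C1q UMIs (right), 1 point per library with its Wilson 95% confidence interval and the mean of 3 libraries as a line. Nlrp3-/- replicate 3, at 6.25%, lies above every other library on the left, and the groups overlap on the right.

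Gene levels were then compared between the genotypes within the C1q Mrc1 macrophages, from UMIs summed per library, with the edgeR quasi-likelihood test and Benjamini-Hochberg adjustment over 9624 genes. At an adjusted p under 0.05, 33 genes (0.343% of those tested) were called, 11 (0.114%) higher and 22 (0.229%) lower in Nlrp3-/- libraries. The X and Y chromosomes held 4 of these genes each, out of 288 and 6 tested. A further 5 of 295 tested were Nlrp3 itself and 4 genes less than 20 Mb from it on chromosome 11, and the other 20 were among 9033 genes elsewhere. Of those 20, Ccl9 also lies on chromosome 11, beyond that distance, at chr11:83572919-83578636. The count rested strongly on wild-type replicate 3. Without it 1175 of 10111 genes tested were called, and the 33 were all among them. Without wild-type replicate 1 the count was 21, without Nlrp3-/- replicate 1 it was 21, without replicate 2 it was 15 and without replicate 3 it was 14. At an unadjusted p under 0.05 there were 1570 genes (16.3%), and 1967 genes (20.4%) had groups that did not overlap. DESeq2 called 179 (1.86%). The counts of listed genes below are to be read beside these shares of all genes.

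Of the measures of library quality taken here, the mitochondrial share alone separated the genotypes. The median mitochondrial share of the cells was 1.41%, 1.63% and 1.69% in wild-type and 2.03%, 2.63% and 2.39% in Nlrp3-/- libraries, without overlap (exact permutation p = 0.1, the smallest possible). Ribosomal protein genes took 14.3%, 14.2% and 11.5% of UMIs in wild-type and 11.8%, 9.52% and 10.5% in Nlrp3-/- libraries, with overlap (exact permutation p = 0.2). Fold changes also followed transcript length. Over 5 equal bins of length the median log2 fold change went from -0.136 in the shortest, with a median of 1353 bases, to 0.122 in the longest, with 6786 bases. The same bins went from -0.099 to 0.246 for wild-type replicate 3 against the mean of wild-type replicates 1 and 2. The part of these in the gene differences was not tested.

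RNA of other cell types was measured in the C1q Mrc1 macrophages, in which the rule itself limits S100a8, S100a9 and collagen UMIs. Within that limit S100a8 was at 737, 407 and 211 CPM in wild-type and 204, 235 and 342 CPM in Nlrp3-/- libraries. The summed level of 8 other neutrophil genes was 576, 302 and 193 CPM in wild-type and 154, 323 and 394 CPM in Nlrp3-/- libraries, and that of 8 mesenchymal genes lay between 152 and 284 CPM. The 6 erythroid genes were at 21.8, 7.10 and 19.4 CPM in wild-type and 205, 64.0 and 30.8 CPM in Nlrp3-/- libraries, without overlap. The 5 B cell genes summed to 23.6 to 55.0 CPM, the 5 endothelial genes to 39.7 to 73.3 CPM, and the 8 osteoclast genes to 259 to 482 CPM, with Calcr at 0. T and natural killer, dendritic, mast cell and muscle lists each stayed at or under 11.5 CPM, and Myf5 of the muscle list was at 0. Cells with at least 3 UMIs of these lists made up 73.0%, 37.2% and 28.8% of wild-type and 12.4%, 57.8% and 56.9% of Nlrp3-/- cells. These counts used the B cell, T and natural killer, endothelial, erythroid and neutrophil lists. EdgeR called 0 genes of any other-type list, and DESeq2 called 1, an erythroid gene. At an unadjusted edgeR p under 0.05 there were 1 of 7 neutrophil, 1 of 7 mesenchymal, 4 of 4 erythroid, 2 of 3 B cell, 0 of 5 endothelial and 1 of 4 osteoclast genes tested, beside 16.3% of all genes (1.86% called by DESeq2). When cells with such UMIs were left out 22 genes were called, 21 of them among the 33. The part of this RNA in single gene differences was otherwise not tested.

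Nlrp3 itself (chr11:59541568-59566956 in GRCm38, plus strand) was at 60.2, 79.1 and 87.2 CPM in wild type, with 0 UMIs in each of the 3 knockout libraries. A UMI was found in 28.2%, 26.7% and 33.1% of wild-type cells, and in 40.4% to 62.0% of wild-type neutrophils, which express the gene. Wild-type barcodes of at most 100 UMIs, which hold mostly free RNA, had 93.6, 174 and 165 CPM, above the C1q Mrc1 macrophages of each library. The part of free RNA in the Nlrp3 level of these cells was not tested. Against a limit of 3 UMIs per library the level was at least 78.9-fold lower in the knockout (adjusted p = 7.34e-06). Nlrp3 was 1 of 13 inflammasome genes tested and the only one of these called by edgeR or DESeq2, beside 0.343% and 1.86% of all genes. At an unadjusted edgeR p under 0.05 there were 3, beside 16.3% of all genes. The adaptor gene Pycard was at 249, 303 and 252 CPM in wild-type and 288, 287 and 280 CPM in Nlrp3-/- libraries. Casp1, the protease that matures IL-1 beta, was at 39.7, 46.8 and 42.5 CPM and at 31.4, 51.4 and 31.2 CPM. Il1b was at 156, 219 and 227 CPM in wild-type and 218, 145 and 202 CPM in Nlrp3-/- libraries, and the groups overlapped (log2 fold change -0.18 ± 0.18 SE, adjusted p = 0.656). The other members, from Il18 and Gsdmd to Nek7 and P2rx7, had log2 fold changes from -0.46 for Ninj1 to 0.60 for Nlrp1b.

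Gdf3, a ligand of the TGF-beta superfamily, rose. It was at 4.27, 17.6 and 3.61 CPM in wild-type libraries and at 103, 106 and 104 CPM in Nlrp3-/- libraries, so the groups lay far apart. The log2 fold change was 3.34 ± 0.38 SE (adjusted p = 0.00234), and the call held in all 18 alternatives. A Gdf3 UMI was present in 5.37% of the cells of wild-type replicate 2, and in 25.6%, 25.5% and 29.0% of Nlrp3-/- cells, with at most 9.79% of a knockout library's Gdf3 UMIs in 1 cell. In neutrophils, at 0.317, 1.06 and 0 CPM against 5.64, 1.18 and 0 CPM, Gdf3 was low throughout. Barcodes of at most 100 UMIs had 1.82, 3.65 and 1.46 CPM in wild-type and 28.6, 10.9 and 26.6 CPM in Nlrp3-/- libraries. Each value was below that of the C1q Mrc1 macrophages of its library, and the part of free RNA was not tested. Gdf3 lies at chr6:122605403-122610087 (GRCm38, minus strand), away from the targeted locus. Among 13 growth factor genes it was the 1 called, beside 0.343% of all genes. Another count, at an unadjusted edgeR p under 0.05, gave 2 higher and 2 lower, and DESeq2 called 2. Pdgfb, a mitogen for mesenchymal cells, was at 30.3, 36.3 and 40.7 CPM in wild-type and 56.0, 82.5 and 59.4 CPM in Nlrp3-/- libraries without overlap, at an adjusted p of 0.0899. Igf1 was at 157 to 220 CPM and 215 to 233 CPM, and Vegfa at 78.1, 84.1 and 151 CPM and 73.8, 41.9 and 67.6 CPM.

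Hpgd, which encodes the enzyme that inactivates prostaglandins and was chosen after its values were seen, was called as well. It was at 5.12, 7.36 and 0.452 CPM in wild-type and 33.1, 36.95 and 32.9 CPM in Nlrp3-/- libraries (log2 fold change 2.72 ± 0.39 SE, adjusted p = 0.0134). In the knockout 10.4% to 12.9% of the cells had an Hpgd UMI, and Hpgd in neutrophils was at most 3.22 CPM. It was at 0.538, 4.52 and 0.407 CPM in wild-type and 30.8, 56.4 and 82.8 CPM in knockout monocytes, again without overlap. In barcodes of at most 100 UMIs it was at 16.9, 33.9 and 8.25 CPM in wild-type and 12.3, 25.3 and 11.4 CPM in Nlrp3-/- libraries, which for wild type is above the C1q Mrc1 macrophages. The call was lost without wild-type replicate 1 and without any of the 3 knockout libraries, at adjusted p from 0.0549 to 0.124. In MHC-II C1q macrophages Hpgd was at 2.39, 14.7 and 0 CPM and at 75.6, 60.2 and 73.7 CPM.

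Of 14 chemokine genes tested, 2 were called and both fell, beside 0.229% of all genes called lower. At an unadjusted edgeR p under 0.05 there were 6, all lower, beside 16.3% of all genes, and DESeq2 called 4, beside 1.86%. Cxcl1, a neutrophil attractant, was at 327, 242 and 376 CPM in wild-type libraries and 138, 70.3 and 66.9 CPM in Nlrp3-/- libraries. Each wild-type library was above each knockout library, and Cxcl1 fell by 1.87 ± 0.28 SE on the log2 scale (adjusted p = 0.0166). In barcodes of at most 100 UMIs Cxcl1 was at 166, 368 and 258 CPM in wild-type and 152, 49.5 and 105 CPM in Nlrp3-/- libraries, and in neutrophils at 55.3, 327 and 109 CPM and 143, 20.1 and 23.8 CPM. Wild-type replicate 2 and Nlrp3-/- replicates 1 and 3 thus had more Cxcl1 in such barcodes than in the C1q Mrc1 macrophages, and the part of free RNA was not tested. The call was lost without wild-type replicate 1 (adjusted p = 0.0601), Nlrp3-/- replicate 2 (0.112) or Nlrp3-/- replicate 3 (0.138). Ccl9, a monocyte attractant, was at 408, 463 and 416 CPM against 287, 281 and 247 CPM and fell by 0.76 ± 0.13 SE (adjusted p = 0.0454), a call lost without any 1 library other than wild-type replicate 3 (0.115 to 0.241) and kept in 8 of 18 alternatives. Those that ended it included a block for the replicate number, other limits on C1q, MHC-II and total UMIs and limits on shares of UMIs. Cxcl2 was at 2723, 2428 and 2297 CPM against 1873, 1246 and 1366 CPM, at an adjusted p of 0.102. Over the 14 chemokines tested, 11 had a negative and 3 a positive log2 fold change, with a median of -0.64 against 0.00995 over all genes tested. The positive ones were Ccl2, Ccl3 and Ccl24, of which Ccl2 was at 186, 294 and 174 CPM against 353, 257 and 278 CPM. Ccl8, the listed CC chemokine with the highest mean, was at 2015, 728 and 380 CPM against 659, 460 and 1069 CPM and overlapped widely.

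Among 11 pro-inflammatory genes tested, Nfkbia fell and was the 1 called, beside 0.343% of all genes. The unadjusted edgeR p was under 0.05 for 1 higher and 3 lower, and DESeq2 called 2. Nfkbia encodes the inhibitor of NF-kappaB that NF-kappaB itself induces, and its level was 1004, 965 and 951 CPM in wild-type and 613, 573 and 639 CPM in Nlrp3-/- libraries. The spread within each group was narrow beside the gap between them, and the log2 fold change was -0.78 ± 0.13 SE (adjusted p = 0.0414). The call was lost without any 1 library other than wild-type replicate 3, at adjusted p from 0.137 to 0.206, and was kept in 9 of 18 alternatives. Those that ended it included a block for the replicate number, other limits on C1q and MHC-II and leaving out cells with UMIs of other types. Tnf was at 194, 167 and 149 CPM against 106, 105 and 105 CPM (adjusted p = 0.0573). It passed the threshold without wild-type replicate 3 (0.00219), as did 1175 of 10111 genes tested. Dusp2, an inducible phosphatase that acts on MAP kinases, fell by 1.05 ± 0.14 SE, from 218, 180 and 187 CPM to 110, 99.6 and 94.2 CPM (adjusted p = 0.0114). Its call was lost without Nlrp3-/- replicate 2 (0.0917) or 3 (0.135), and without cells that carried UMIs of other types (0.0759). The median over the pro-inflammatory list was -0.22, with 9 of 11 values negative.

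Cxcl1 and Nfkbia are textbook NF-kappaB targets, so the 250 bases before the start of each are shown with matches to an NF-kappaB-type motif in capitals. The motif was GGGA, any 2 bases and then TTCC, searched on both strands. The sequences are from RefSeq on build GRCm38.p6, at chr5:90890995-90891244 on the plus strand for Cxcl1 and chr12:55492648-55492897 on the minus strand for Nfkbia.
Cxcl1: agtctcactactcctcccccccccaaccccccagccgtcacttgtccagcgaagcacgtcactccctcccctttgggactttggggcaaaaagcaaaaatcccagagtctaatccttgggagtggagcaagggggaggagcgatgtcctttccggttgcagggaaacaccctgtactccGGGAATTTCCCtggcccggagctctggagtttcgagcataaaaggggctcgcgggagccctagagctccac
Nfkbia: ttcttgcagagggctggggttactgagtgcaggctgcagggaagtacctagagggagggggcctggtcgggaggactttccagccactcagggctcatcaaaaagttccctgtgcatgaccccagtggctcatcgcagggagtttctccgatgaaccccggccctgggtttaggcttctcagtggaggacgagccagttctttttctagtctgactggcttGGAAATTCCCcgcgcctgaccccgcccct
The first match began 71 bases before the start in Cxcl1, where 2 matches on opposite strands overlapped, and 29 bases before it in Nfkbia. Cxcl2 also held 2 matches, and Dusp2, Ccl9 and Hpgd held none in this window. In windows from 250 bases before to 50 after the start, 482 of 32851 promoters (1.47%) held the motif. Cxcl1 and Nfkbia were picked as known targets, so their matches beside that share are no test. A match is a description of letters and not of binding.

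Chil3, a chitinase-like lectin found in monocytes and alternatively activated macrophages, fell. It was at 50.4, 23.9 and 23.9 CPM in wild-type and 3.07, 4.51 and 6.74 CPM in Nlrp3-/- libraries, a log2 fold change of -2.75 ± 0.38 SE (adjusted p = 0.0115). In wild-type replicate 3 a single cell held 54.7% of its 53 UMIs. The call was lost without any 1 of the knockout libraries (adjusted p 0.0583 to 0.0786) without cells that carried UMIs of other types (0.0539) and with limits on shares of UMIs (0.0698), and was kept in 12 of 17 alternatives. Of 10 monocyte genes tested, Chil3 was the 1 called, beside 0.343% of all genes, and the median log2 fold change was -0.53. At an unadjusted edgeR p under 0.05 there were 1 higher and 4 lower, beside 16.3% of all genes, and DESeq2 called 2. Chil3 was higher in other barcodes of the same libraries and lower in the knockout there too. It was at 3135, 1842 and 2299 CPM against 626, 825 and 662 CPM in neutrophils, and at 832, 310 and 579 CPM against 80.2, 168 and 126 CPM in barcodes of at most 100 UMIs, which hold mostly free RNA. The part of such RNA in the values of the C1q Mrc1 macrophages was not tested beyond the alternative just given. Plac8 was at 101, 69.4 and 74.1 CPM against 45.1, 41.5 and 55.9 CPM (adjusted p = 0.0961), and Ly6c2 at 44.4, 34.2 and 18.1 CPM against 14.7, 25.7 and 16.4 CPM. Ccr2 ran the other way in level, at 45.3, 54.4 and 57.8 CPM against 80.6, 98.2 and 56.4 CPM, with overlap.

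The plot of levels by library shows these genes together with Aif1 and Spp1, which did not pass the test. Aif1, the actin-binding protein Iba1, was at 1018, 1057 and 594 CPM in wild-type and 475, 390 and 472 CPM in Nlrp3-/- libraries (adjusted p = 0.0888). Spp1 was at 2731, 2608 and 7473 CPM in wild-type and 9118, 10070 and 8466 CPM in Nlrp3-/- libraries (adjusted p = 0.176). In both genes wild-type replicate 3 lay between the other wild-type libraries and the knockout, and without it both were called (adjusted p = 0.000604 and 0.000396). The same held for Pf4, at 6237, 7162 and 3981 CPM against 3680, 3355 and 3421 CPM, whose adjusted p went from 0.147 to 0.00156. These calls stand beside 1175 of 10111 genes called by edgeR without wild-type replicate 3.

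**Figure D3:**
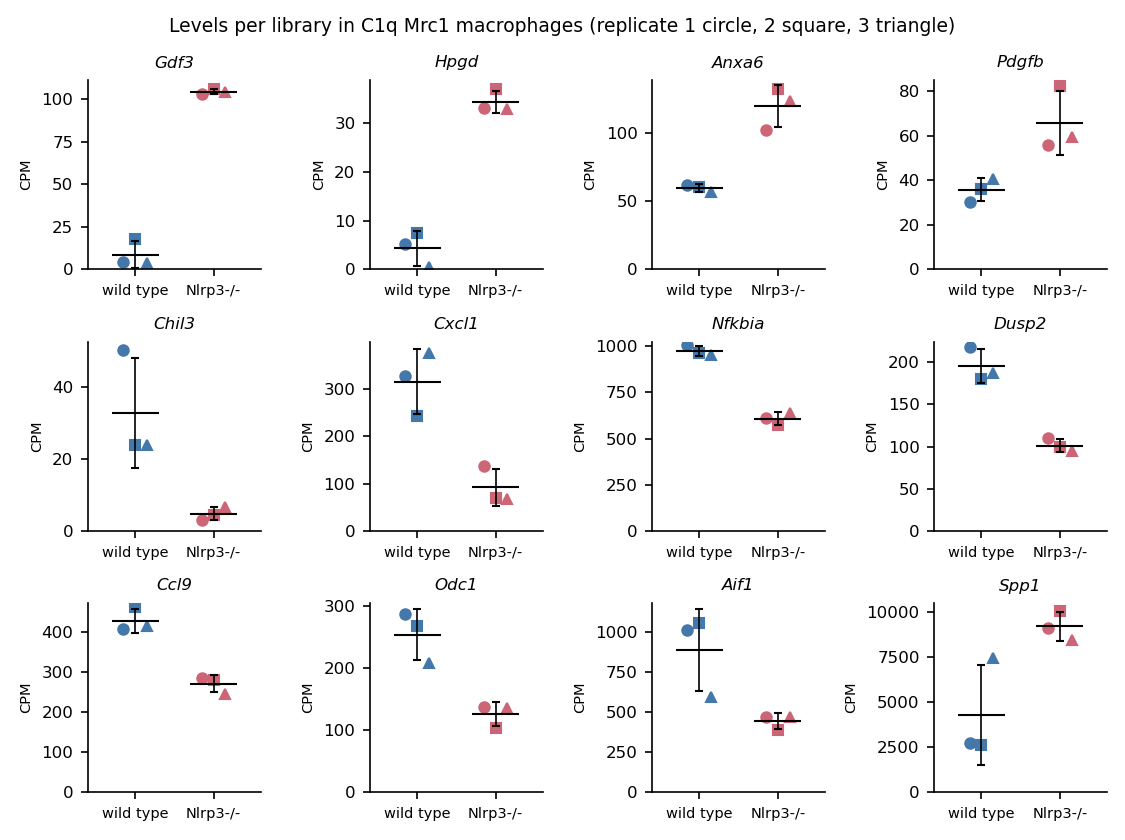
Level in CPM (vertical axis, from 0) of 12 genes in the C1q Mrc1 macrophages of each library, with the mean as a line and the SD as a bar (n = 3 libraries per group). Pdgfb, Aif1 and Spp1 did not pass the adjusted threshold, and the other 9 did. Gdf3 was near 104 CPM in each knockout library and at most 17.6 CPM in wild type.

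The remaining named calls were spread over other functions. Odc1, the first enzyme of polyamine synthesis, fell by 1.11 ± 0.18 SE (254 ± 41.2 to 126 ± 18.9 CPM, SD, n = 3, edgeR adjusted p = 0.0358), and the AP-1 partner gene Jdp2 fell by 1.12 ± 0.19 SE (edgeR adjusted p = 0.0403). Both calls were lost without any 1 library other than wild-type replicate 3 (0.115 to 0.197), as was that of the mitochondrial ribosome gene Mrps12, which fell by 0.93 (0.103 to 0.198). Of 18 alternatives, 12 kept the call of Odc1, 10 that of Jdp2 and 10 that of Mrps12. Other limits on C1q ended those of Odc1 and Mrps12, other limits on MHC-II that of Jdp2, thinning those of Jdp2 and Mrps12, and leaving out cells with UMIs of other types that of Mrps12. Wdfy1, an endosomal adaptor, fell by 1.75 ± 0.17 SE, from 30.3, 36.02 and 35.7 CPM to 12.6, 10.4 and 9.87 CPM, and was called with each library left out, though not after thinning to 1000 UMIs (0.104). Tpm3-rs7 fell by 5.88, from 157, 83.3 and 205 CPM to 3.42, 0.451 and 3.12 CPM, and AC149090.1, on an unplaced scaffold, rose by 1.31. The first is named as a copy of Tpm3, and how reads of near-identical copies were counted leaves such values uncertain.

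Near Nlrp3 on chromosome 11, the calcium-dependent membrane protein gene Anxa6 rose by 0.89 ± 0.14 SE, from 61.9, 60.5 and 56.5 CPM to 102, 132 and 123 CPM (adjusted p = 0.0229). It was not called without wild-type replicate 1 or 2 or Nlrp3-/- replicate 2 or 3 (0.0712 to 0.175). The histone gene Hist3h2a fell by 1.38, which was lost without Nlrp3-/- replicate 3 (0.0907), and Mrpl55 fell by 0.79, which was lost without any 1 library other than wild-type replicate 3 (0.0856 to 0.202) and kept in 9 of 18 alternatives. Another limit on C1q, a block for the replicate number, thinning and leaving out cells with UMIs of other types also ended it. The 4 Y-linked genes Ddx3y, Eif2s3y, Uty and Kdm5d were at least 52.3-, 42.4-, 14.04- and 7.66-fold lower against a limit of 3 UMIs per library, and Xist was higher by 12.34 on the log2 scale. The plot of log2 fold change against level shows that most called genes lay below 200 CPM.

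**Figure D4:**
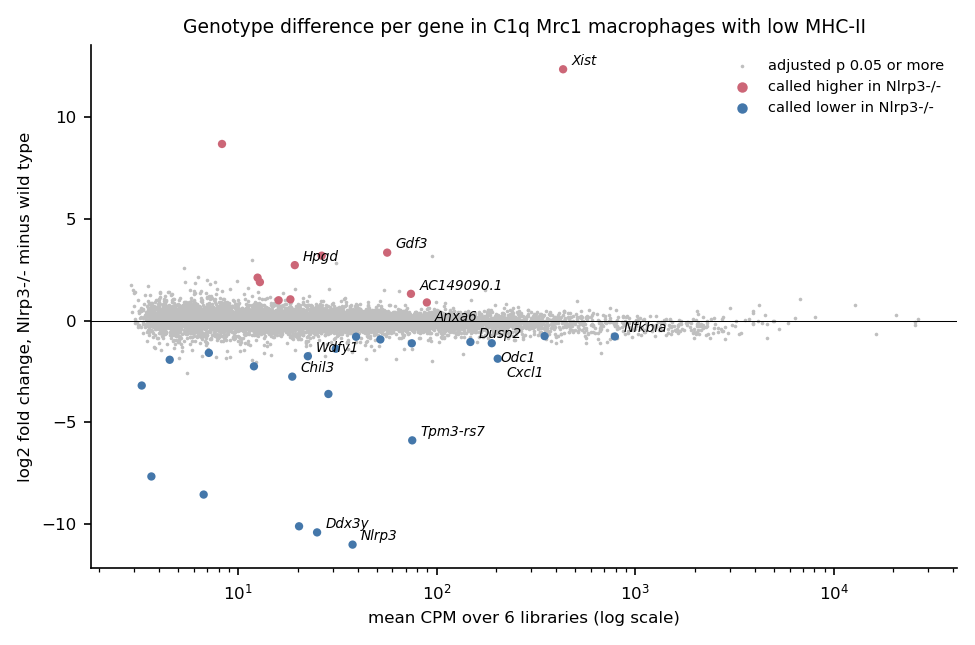
Log2 fold change, Nlrp3-/- minus wild type (vertical axis), against the mean CPM over 6 libraries (horizontal, log scale) for the 9624 genes tested in C1q Mrc1 macrophages. Coloured points are the 11 genes called higher and the 22 called lower at an adjusted p under 0.05, and grey points the rest; values of genes with 0 UMIs in a group, such as Nlrp3, depend on the prior count.

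Functions by which such macrophages are known gave few calls. None of the 12 efferocytosis genes was called, while 4 had an unadjusted p under 0.05 (edgeR) and DESeq2 called 1, against 16.3% and 1.86% of all genes tested. The median log2 fold change was 0.30. Gas6, which bridges dying cells to the receptors Mertk and Axl, was at 194, 154 and 205 CPM in wild-type and 286, 235 and 287 CPM in Nlrp3-/- libraries without overlap (adjusted p = 0.191). Mertk itself was at 83.3, 66.0 and 102 CPM against 83.0, 64.9 and 81.4 CPM. Stab1 was at 334, 386 and 422 CPM against 562, 543 and 500 CPM, again without overlap (adjusted p = 0.183). Of 15 scavenger and lipid genes tested, 10 were positive with a median of 0.06. None was called by edgeR or DESeq2, and 1 had an unadjusted edgeR p under 0.05. Trem2 was at 857, 804 and 1034 CPM against 1114, 1113 and 1186 CPM and Apoe overlapped throughout. Iron and heme genes had a median of -0.34 over 10 genes, with 0 called by edgeR or DESeq2 and 4 at an unadjusted edgeR p under 0.05. Ftl1, the ferritin light chain, was at 21800, 21940 and 13930 CPM against 14030, 12270 and 13640 CPM, and Hmox1 at 1057, 1401 and 1556 CPM against 1320, 1478 and 1544 CPM.

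Among 10 complement genes other than C1q that were tested, 0 were called by edgeR, 5 had an unadjusted p under 0.05 and DESeq2 called 3, beside the same 16.3% and 1.86% of all genes. C3ar1, the receptor for C3a, was at 314, 293 and 453 CPM against 465, 623 and 475 CPM, and properdin, Cfp, at 584, 576 and 314 CPM against 277, 212 and 301 CPM (adjusted p = 0.126). Of 12 genes of alternative activation and of IL-4 and IL-10 signalling, Chil3 was the 1 called, beside 0.343% of all genes, and signs were split 6 to 6. Of these genes 3 higher and 2 lower had an unadjusted edgeR p under 0.05, and DESeq2 called 2. Il10 was at 26.9, 28.7 and 24.9 CPM against 11.7 to 19.1 CPM (adjusted p = 0.0995), while its receptor chain Il10ra was at 70.0, 61.0 and 91.3 CPM against 99.4, 98.2 and 98.0 CPM. Type I interferon response genes had 12 of 14 values negative and a median of -0.43, with 0 called by edgeR, 3 at an unadjusted p under 0.05 and 1 called by DESeq2, shares that stand beside 16.3% and 1.86% of all genes. Irf7 was at 147, 97.3 and 75.9 CPM against 31.1, 50.5 and 48.3 CPM (adjusted p = 0.0573) and Isg15 at 195, 116 and 49.7 CPM against 59.1, 89.2 and 51.8 CPM.

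The lists of macrophage identity (median -0.08 over 12 genes), resident and perivascular genes (0.33 over 9 tested of 12), transcription factors (0.19 over 14), lysosomal genes (0.11 over 14), Fc receptors (-0.13 over 7), MHC-II pathway genes outside the rule (-0.27 over 6 of 8) and immediate-early and stress genes (-0.16 over 14) had 0 edgeR calls. At an unadjusted edgeR p under 0.05 they held 2, 3, 4, 3, 2, 0 and 1 genes in that order, and DESeq2 called 2 of the identity and 2 of the transcription factor genes and 0 of the others. Over all genes tested 16.3% had such a p and DESeq2 called 179 (1.86%). Nr1h3, the oxysterol receptor LXR alpha, was at 114, 104 and 67.3 CPM against 49.9, 45.1 and 56.7 CPM (adjusted p = 0.0888), and Maf and Spi1 overlapped between the groups, with adjusted p of 0.407 and 0.826. A pair of lists that the study drew from these same samples is not independent evidence of direction. The anti-inflammatory list of 5 genes was positive throughout with 1 called, Gdf3, while Gas6, Sulf2, Tgfbr2 and Fcgr2b had adjusted p of 0.191, 0.187, 0.235 and 0.299. The pro-inflammatory list of 5 genes was negative throughout with 1 called, Nlrp3, while Aif1, Ninj1, S100a9 and Zbp1 had adjusted p of 0.0888, 0.263, 0.251 and 0.209. In each list edgeR called 1 of 5, beside 0.343% of all genes. In each list 5 of 5 had an unadjusted edgeR p under 0.05, beside 16.3% of all genes, and DESeq2 called 1 and 2 genes, beside 1.86%. The neutrophil gene S100a9 was at 933, 476 and 240 CPM against 235, 275 and 377 CPM, which follows the neutrophil sums given above, and part of the rule limits it.

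**Figure D5:**
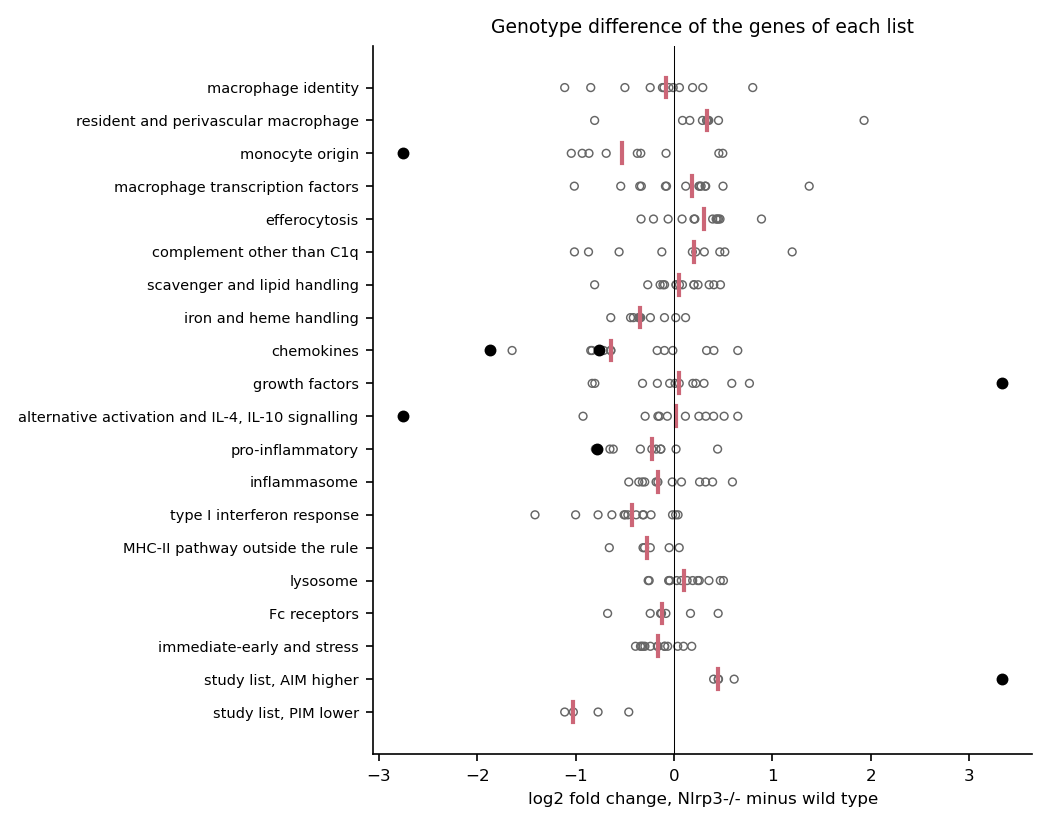
Log2 fold change, Nlrp3-/- minus wild type (horizontal axis), of the tested genes of each list (rows), with filled points for genes at an adjusted p under 0.05, open points for the others and the list median as a coloured bar. Nlrp3 is left off the plot at -11.0. Chemokines and type I interferon genes have medians of -0.64 and -0.43, and efferocytosis genes 0.30.

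Whether genotype differences themselves differed from those of neighbouring macrophages was tested as an interaction in edgeR with the library as a block. Against MHC-II C1q macrophages 4 of 9864 genes (0.0406%) were called, and against Arg1 macrophages 2 of 9079 (0.022%). Tested alone, MHC-II C1q macrophages had 36 genes called of 7911 (0.455%) and Arg1 macrophages 15 of 5584 (0.269%). Gdf3 was at 9.57, 19.0 and 0 CPM against 117, 70.2 and 102 CPM in MHC-II C1q macrophages and at 8.30, 10.2 and 13.6 CPM against 75.1, 82.5 and 79.6 CPM in Arg1 macrophages. It was not among the interactions called in either. Cxcl1 was at 230, 206 and 220 CPM against 181, 73.8 and 75.9 CPM in MHC-II C1q macrophages, and at 295, 331 and 697 CPM against 362, 302 and 186 CPM in Arg1 macrophages, where the groups overlapped. The interactions called were Cxcl9, Ccl5, Acan and Col2a1 in the first comparison and Ccl8 and Igfbp5 in the second. Counts moved with single libraries, to 28 and 11 without wild-type replicates 2 and 3 and 23 without Nlrp3-/- replicate 1 in the first. In the second they moved to 12, 5 and 15 without wild-type replicates 1, 2 and 3, and to 5 and 25 without Nlrp3-/- replicates 2 and 3.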

How the data were processed

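Single-cell RNA was measured with droplet-based 3′ chemistry. Per the file headers, the deposited counts are unnormalized UMIs per gene and barcode for 32285 genes from Cell Ranger 4, 1 matrix a library. The labels' processing notes name Cell Ranger 2.1.1 and mm10. No library was normalized or pooled in these files, and no cell labels were used here. GENCODE M21 held 32235 of the 32285 gene identifiers.

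The members and gene lists were chosen with earlier results of these data known. UMIs of the cells that met the rule were summed per library. Genotype differences were tested with edgeR 4.0.16 in R 4.3.3 (quasi-likelihood test, TMM, filterByExpr, Benjamini-Hochberg, threshold 0.05). Shares were tested by exact two-sided permutation over 20 assignments. Monocytes had at least 3 Ly6c2 UMIs, and in neutrophils S100a8 and S100a9 took at least 5% of UMIs. Named genes were up to 12 per direction with the largest change among called genes with a mean of at least 20 CPM, no overlap and no predicted symbol, plus in each list the called genes and up to 4 of the highest level, and the inflammasome, sex-linked and study lists whole. Uncalled genes outside that rule, among them Spp1, Fcrls, Nr1h3, Irf7, Tnf, Il10, Pdgfb, Vegfa, Ly6c2, Mertk, Vsig4, Cx3cr1, Ccl2, Ltc4s, Fcna, Cbr2 and Il10ra, were picked after their values were seen. Populations were compared as log2 ratios of CPM + 1. Alternatives were DESeq2 1.42.0, RLE scaling, no filter, a replicate block, each library left out, other limits of the rule and cells thinned to 1000 UMIs. The edgeR genotype fit, though not the interaction fit or DESeq2, was also run on simulated counts with 1 set spread for all genes. Of 9624 genes 200 were changed. The fit recovered 44.8% of changes of 1 and 100% of changes of 2 on the log2 scale, with 6 false calls. Intervals and limits of 3 counts cover counting error only.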

Additional observations from a re-analysis of the deposited data

Results flagged for a closer look

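Genotype differences of 6 genes differed between C1q Mrc1 macrophages and a neighbouring population in the edgeR interaction test. Values below are interactions on the log2 scale, C1q Mrc1 macrophages minus the other.

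Cxcl9, an interferon gamma-induced chemokine, had an interaction of -5.87 against MHC-II C1q macrophages (adjusted p = 0.000328, called in 8 of 9 alternatives). It was at 2.56, 16.3 and 0.904 CPM in wild-type and 1.37, 2.70 and 0.987 CPM in Nlrp3-/- C1q Mrc1 macrophages. In MHC-II C1q macrophages it was at 12.8, 11.4 and 1.05 CPM and at 3.02, 309 and 79.3 CPM. The 2 high values came from 339 UMIs in 11 of 156 cells of Nlrp3-/- replicate 2 and 211 UMIs in 16 of 395 cells of replicate 3, and Nlrp3-/- replicate 1 was not high.

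Ccl5 had an interaction of -2.01 (adjusted p = 0.0292, called in 5 of 9 alternatives). In C1q Mrc1 macrophages it was at 42.3, 36.3 and 130 CPM in wild-type and 19.5, 16.2 and 21.7 CPM in Nlrp3-/- libraries. A single cell held 245 of the 288 UMIs of wild-type replicate 3, which is 85.1%. In MHC-II C1q macrophages Ccl5 was at 26.3, 62.4 and 57.7 CPM and at 68.5, 61.1 and 67.3 CPM, so that 2 wild-type libraries were close to the knockout.

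The cartilage genes Col2a1 and Acan had interactions of -3.99 and -3.71 (adjusted p = 0.0164 and 0.0449, called in 6 and 5 of 9 alternatives). In wild-type replicate 1 a single C1q Mrc1 cell held 932 of 980 Col2a1 UMIs (95.1%) and 134 of 144 was the highest Acan count of 1 cell (93.1%). In Nlrp3-/- replicate 2 Col2a1 was spread over 58.8% of the cells, with at most 13 UMIs in 1 cell. The other barcodes of that library held it too, at 124 CPM in MHC-II C1q macrophages (57.1% of cells), 136 CPM in monocytes, 163 CPM in neutrophils and 5111 CPM in barcodes of at most 100 UMIs, against 127 CPM in C1q Mrc1 macrophages. The part of free RNA in this share was not tested.

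Against Arg1 macrophages, Ccl8 had an interaction of -2.13 (adjusted p = 0.00227, called in 8 of 9 alternatives). Arg1 macrophages had 33.2, 28.0 and 9.03 CPM in wild-type and 81.9, 27.5 and 147 CPM in Nlrp3-/- libraries, and 1 cell held 123 of 146 UMIs in Nlrp3-/- replicate 3 and 31 of 36 in replicate 1. Igfbp5 had an interaction of 5.13 (adjusted p = 0.0123, called in 6 of 8 alternatives), with 68 UMIs in 3 cells of wild-type replicate 2 Arg1 macrophages and at most 2 UMIs in each other library of them.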

How the results depend on the processing

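The difference in share among all filtered barcodes ran from -0.571 to 1.31 percentage points with 1 library left out, and that among C1q barcodes from 1.05 to 5.62. The latter was -0.395 with limits on shares of UMIs. The 33 genotype calls became 730 of 17856 genes without a filter, 179 (44 higher) with DESeq2, 50 of 5342 (16 shared) after thinning to 1000 UMIs, and 14 to 1175 with 1 library left out. Interactions with MHC-II C1q macrophages numbered 77 without a filter and 3 to 28 with 1 library left out, and those with Arg1 macrophages 4 with RLE scaling, 70 without a filter, 3 to 25 with 1 library left out and 0 in edgeR with limits on shares of UMIs (395 at an unadjusted p under 0.05). Genes at 2-fold in each library went from 19 to 37 against Arg1 macrophages and from 12 to 7 against Mrc1 at 0 after thinning. The cause of these shifts was not tested. Il1b, at -0.18, was at 0.0709 after thinning and was called in neither. Replicate numbers did not pair the libraries (correlations of same-numbered deviations -0.057, -0.165 and -0.134), and the replicate block gave 46 calls, 26 of them shared. Over the single genes, 57 values lost and 17 gained their call with 1 library left out, and 29 lost and 31 gained it under the other alternatives. Depth sets the limit for genes with 0 UMIs in the Nlrp3-/- libraries, at 0.957 CPM on average for 3 UMIs per library.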

Other observations

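Fcrls, an Fc receptor-like gene known from microglia and chosen after its values were seen, was at 75.2, 138 and 42.9 CPM in wild-type and 218, 343 and 232 CPM in Nlrp3-/- C1q Mrc1 macrophages, without overlap (edgeR adjusted p = 0.102). In Arg1 macrophages it was lower in every library, at 4.15, 10.2 and 3.01 CPM and at 36.4, 67.5 and 58.4 CPM. Cx3cr1, the fractalkine receptor, was at 31.6, 58.6 and 90.8 CPM in wild-type and 90.9, 186 and 65.1 CPM in Nlrp3-/- libraries. The complement receptor gene Vsig4 was at 6.83, 3.42 and 1.36 CPM in wild-type and 0.342, 26.6 and 21.1 CPM in Nlrp3-/- libraries, so Nlrp3-/- replicate 1 was the lowest of all 6.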
